A study of Mustela putorius furo and Mus musculus with 4 samples.

Results

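Reactive astrocytes are astrocytes that have changed their gene expression and shape after injury, infection or inflammation. Panels of their genes are commonly divided into pan-reactive genes, which rise after most insults, genes associated with inflammation (called A1) and genes associated with ischaemia (called A2), a simplified scheme that is still used as a yardstick. Many of these genes respond to cytokines of the interleukin-6, interleukin-1 and tumour necrosis factor families through STAT3 and NF-kB, and astrocytes grown in serum-containing culture are known to express part of the programme without any further stimulus. Lcn2, which encodes the secreted siderophore-binding protein lipocalin-2, is one of the best known pan-reactive genes. Described here are Lcn2 and 9 further genes of these panels, of which Steap4 and S1pr3 are also pan-reactive, Fbln5 is A1-associated, and Cd109, Emp1, Slc10a6, Tm4sf1, Ptx3 and Sphk1 are A2-associated. These 10 genes were found by symbol, without regard to case, among the 13373 gene symbols that the ferret and mouse values share, and each had 1 value per library. The choice of the 10 genes was made with their levels in these same libraries known, so their species differences are given as a description and were not tested.

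The libraries came from cultured cortical astrocytes, 2 from normally pigmented sable ferrets (Mustela putorius furo) taken on postnatal day 1 and 2 from wild-type ICR mice taken on postnatal day 1 to 3. Cells of both species grew for 14 days as mixed glia in medium with fetal bovine serum, and the flasks were then shaken to remove loosely attached cells and the rest was replated. From day 3 after replating until RNA harvest on day 7 the medium held no serum but contained transferrin, progesterone and heparin-binding EGF-like growth factor, a ligand of the EGF receptor, and no library was made from cells given an inflammatory stimulus. Levels are in FPKM, fragments scaled to exon length and to the fragments mapped in the library, so that long and short genes can be compared within a species. Species, genome annotation and culture cannot be told apart in this design, and as each library holds the RNA of a whole culture, fewer cells of a type and less RNA per cell cannot be told apart either. The sources used here do not say whether duplicate libraries came from separate cultures, so the p-values given for other genes measure only the spread between these libraries, which may be technical. Sequencing depth is unknown from FPKM.

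Lcn2 was the most abundant of the 10 genes in mouse astrocytes and is listed at 0 in ferret astrocytes. The mouse duplicates held 459 and 462 FPKM, and both ferret duplicates 0. Among the 13373 shared symbols, Lcn2 took position 56 by mean FPKM in the mouse. In the ferret it was one of 1072 shared symbols listed at 0 in both libraries, a value that can also arise from a failed estimate, and no fold difference is given for it. Of those 1072 symbols, 72 had a mouse mean of at least 1 FPKM and 14 a mean of at least 10 FPKM. The highest mouse mean of them all was that of Lcn2 (461 FPKM), followed by Tmem176a (122 FPKM), Mgp (74.4 FPKM) and Apobec1 (58.7 FPKM). On GRCm38 the mouse gene spans positions 32384633 to 32388252 of chromosome 2 (minus strand) in 5 exonic regions, none of them shared with another annotated gene.

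Steap4 encodes a metalloreductase that reduces iron and copper at membranes and is induced by inflammatory cytokines. The ferret duplicates held 0.309 and 0.334 FPKM of it, against 5.01 and 4.65 FPKM in the mouse duplicates. The mouse mean was 15-fold higher, and log2(FPKM + 1), ferret minus mouse, differed by -2.14, a value that depended on the pseudocount (-3.55 with 0.1). S1pr3 encodes a G protein-coupled receptor for sphingosine 1-phosphate. Its levels of 6.95 and 7.47 FPKM in the ferret compared with 31.5 and 32.95 FPKM in the mouse, a 4.47-fold higher mouse mean (log2 difference -2.02). Both mouse libraries were above both ferret libraries for each of the 3 pan-reactive genes. The same held for 59.0% of all 10204 shared genes with a mean of at least 1 FPKM in at least one species. Mouse Steap4 spans positions 7960457 to 7982213 of chromosome 5 (plus strand). S1pr3 spans 51408639 to 51422797 of chromosome 13 (plus strand), where exons of Gm32834 overlap it on the opposite strand, with 0.413 and 0.63 FPKM in the mouse duplicates.

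Fbln5, which encodes the elastic fibre-assembling glycoprotein fibulin-5, was the A1-associated gene. It stood at 1.27 and 0.747 FPKM in ferret and at 69.0 and 69.7 FPKM in mouse duplicates, so that the mouse mean was 68.6 times the ferret mean. The log2 difference, which the pseudocount of 1 makes smaller than this ratio, was -5.14 (-6.01 with a pseudocount of 0.1). The ferret duplicates differed from each other more, relative to their level, than for any other of the 9 genes detected there, yet both stayed far below the mouse duplicates. The mouse gene spans positions 101746565 to 101819055 of chromosome 12 (minus strand) in 12 exonic regions.

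The 6 A2-associated genes did not share a direction. Cd109, which encodes a lipid-anchored surface protein that binds transforming growth factor beta and dampens its signalling, measured 21.4 and 20.8 FPKM in ferret against 117 and 122 FPKM in mouse duplicates. The mouse mean was 5.66 times the ferret mean (log2 difference -2.44). Tm4sf1, a membrane protein of the L6 family found in migrating and endothelial cells, measured 53.1 and 49.45 FPKM in ferret and 121 FPKM in both mouse duplicates (log2 difference -1.22). Both genes were higher in the mouse duplicates without overlap, as were 59.0% of the same 10204 shared genes. In the mouse genome Cd109 spans positions 78615546 to 78716253 of chromosome 9 (plus strand), and Tm4sf1 spans 57285611 to 57301988 of chromosome 3 (minus strand).

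Sphk1, which encodes a kinase that makes sphingosine 1-phosphate, went the other way. It reached 50.7 and 56.1 FPKM in ferret but 9.45 and 8.70 FPKM in mouse duplicates, a 5.89-fold higher ferret mean (log2 difference 2.43). Slc10a6, which encodes a carrier of sulfated steroids, was low in both species. It measured 1.86 and 2.00 FPKM in ferret against 0.164 and 0.125 FPKM in mouse duplicates, a 13.3-fold higher ferret mean, although the log2 difference between values this low depended on the pseudocount (1.35 with a pseudocount of 1 and 3.06 with 0.1). Ptx3, which encodes the secreted pattern recognition molecule pentraxin 3, was moderately higher in the ferret, at 25.9 and 26.2 FPKM against 15.3 and 15.1 FPKM (log2 difference 0.74). Emp1, which encodes a membrane protein of the PMP22 family, was the most abundant of the 6. Its ferret duplicates measured 159 and 170.4 FPKM and its mouse duplicates 154 and 151 FPKM. The ferret mean was 1.08 times the mouse mean (log2 difference 0.11), so its levels lay close together, although the duplicates of the species did not overlap. In the mouse genome Sphk1 spans positions 116530925 to 116536674 of chromosome 11 (plus strand) and is overlapped on the opposite strand by exons of Gm29292 (0.238 and 0.087 FPKM). Slc10a6 spans 103605711 to 103629403 of chromosome 5 (minus strand). Ptx3 spans 66219910 to 66225805 of chromosome 3 and Emp1 spans 135362545 to 135383173 of chromosome 6, both on the plus strand.

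**Figure D1:**
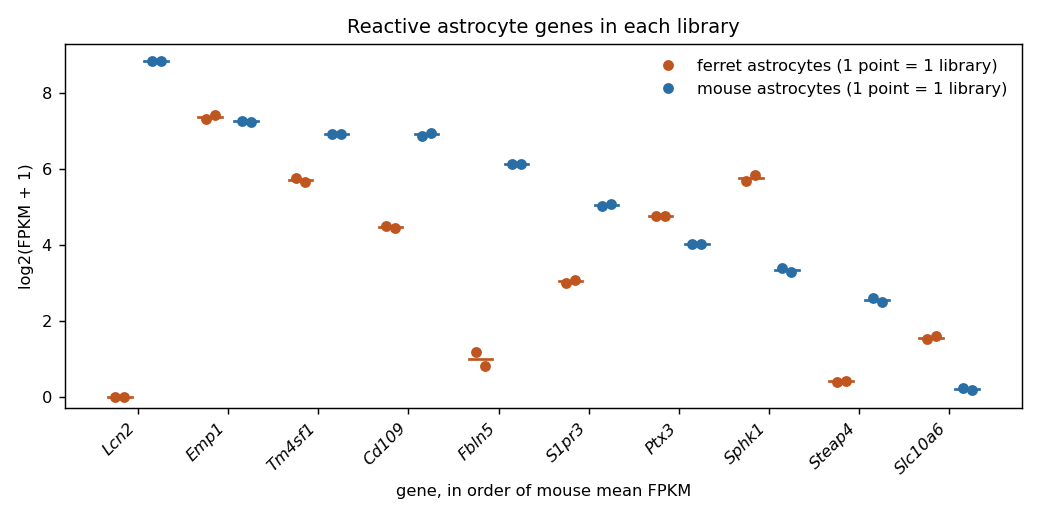
Level of the 10 genes as log2(FPKM + 1) in each library, with 1 point per library and a bar at the mean of each species, ordered by mouse mean FPKM. Lcn2 stands at 0 in both ferret libraries and at 459 and 462 FPKM in the mouse libraries, Emp1 is nearly level, and Sphk1, Ptx3 and Slc10a6 are higher in ferret astrocytes.

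Of the 10 genes, 6 were higher in mouse astrocytes by a log2 difference past 1 (Lcn2, Steap4, S1pr3, Fbln5, Cd109 and Tm4sf1), 2 were higher in ferret astrocytes by as much (Sphk1 and Slc10a6), and 2 lay within 1 (Ptx3 and Emp1). Among all 10204 shared genes with a mean of at least 1 FPKM in at least one species, 30.1% were past that limit towards the mouse, 13.2% were past it towards the ferret and 56.7% lay within it. The duplicates of the species did not overlap for any of the 10 genes, 6 being higher in the mouse and 4 in the ferret, and this separation was common, since it held towards the mouse for 59.0% and towards the ferret for 35.1% of all genes tested. As the 10 genes were chosen on this contrast, nothing is read from these counts. All 10 passed the filter on low values, but Lcn2 and Steap4 did so through the mouse alone and Slc10a6 through the ferret alone.

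The scale between the species was a choice of its own. The median log2 difference of all genes tested was -0.35, and it moved to 0.00 when the libraries were rescaled to a common sum and to 0.08 after quantile normalization. Relative to -0.35, Cd109 stood at -2.10, Tm4sf1 at -0.87, Emp1 at 0.46 and Sphk1 at 2.78. The direction of the 9 genes with a log2 difference was kept under each of 8 alternatives. Only the common sum and the quantile normalization could have reversed it. The duplicates did not overlap and each gene had 1 value per library, so the other alternatives could not. The common sum and the quantile normalization moved Tm4sf1 to -0.84 and -0.89, within the limit of 1, Ptx3 to 1.11 and 1.13, past it, and Emp1 to 0.50 and 0.49.

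**Figure D2:**
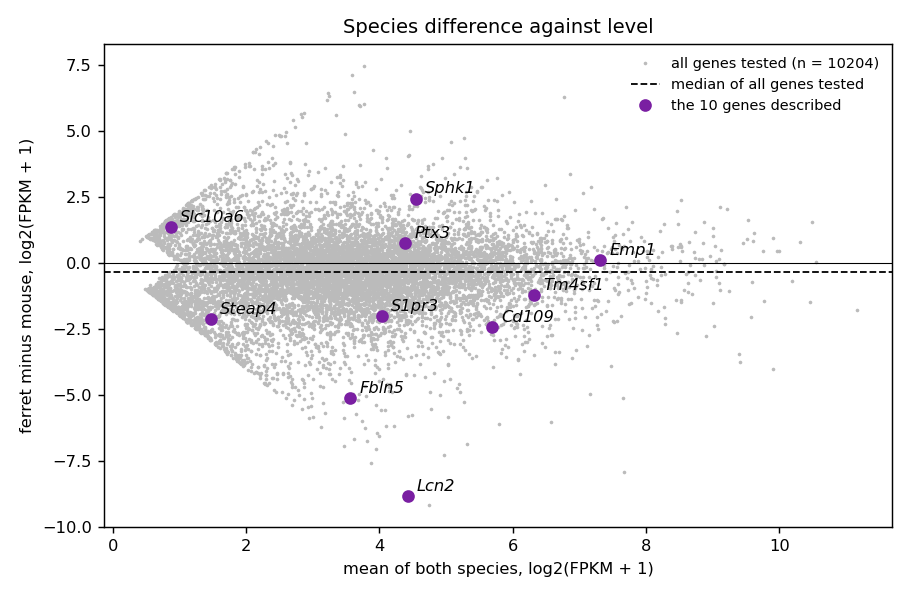
Ferret minus mouse difference in log2(FPKM + 1) against the mean of both species for the 10204 genes tested (grey) and the 10 genes described (purple), with a dashed line at the median of all genes (-0.35). Lcn2 lies near the lower edge of all genes, at a place set by the pseudocount of 1 because it is listed at 0 in the ferret, and Sphk1 lies highest of the 10.

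The order of the 10 genes by level differed between the species. In mouse astrocytes it ran from Lcn2 through Emp1, Tm4sf1, Cd109, Fbln5, S1pr3, Ptx3, Sphk1 and Steap4 to Slc10a6, and in ferret astrocytes from Emp1 through Sphk1, Tm4sf1, Ptx3, Cd109, S1pr3, Slc10a6, Fbln5 and Steap4 to Lcn2. Tm4sf1 and Cd109 had overlapping duplicates in the mouse and Sphk1 and Tm4sf1 in the ferret, and all other neighbours in these orders were apart. Emp1 stood high in both, at position 170 of the shared symbols in the ferret and 267 in the mouse. Sphk1 took position 860 in ferret but 5800 in mouse astrocytes, whereas Fbln5 took position 9151 in ferret but 813 in mouse astrocytes.

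The 5 shared genes whose profile over the 4 libraries was closest to that of Lcn2, by Euclidean distance in log2(FPKM + 1), were Serpinf1 (distance 0.71), Tmem176b (1.69), Col3a1 (1.92), Cavin2 (2.02) and Cyp26b1 (2.43). Serpinf1, which encodes the secreted serpin PEDF, measured 0.094 and 0.128 FPKM in ferret and 629.8 and 653 FPKM in mouse duplicates. Col3a1, a fibrillar collagen chain, measured 1.60 and 1.43 FPKM in ferret and 402 and 375 FPKM in mouse duplicates. With 4 libraries in 2 groups, this likeness says only that these genes were high in both mouse and low in both ferret duplicates.

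The remaining genes of the reactive panels were tested with limma across all genes, and a gene was called where its p after Benjamini-Hochberg adjustment was under 0.05 and its log2 difference past 1. They are what the choice of the 10 genes left over, so their counts are not independent of that choice. Of 27 such genes, 18 had a value in both species and 17 passed the filter on low values. By limma, 12 were higher in mouse and 1 in ferret astrocytes and 4 were not called. Of the 12, 5 passed the filter through the mouse alone (Aspg, Psmb8, Cd14, Ptgs2 and Tgm1) and could only come out higher there, so no count or median of the genes tested is read as support for a direction. Of all genes tested, 30.1% were called higher in the mouse and 13.1% higher in the ferret, 43.2% together, and 88.6% had an adjusted p under 0.05 at any size of difference. The calls across all genes depended on the scale, with 30.3% of them higher in the ferret as deposited, 47.0% with a common sum and 50.2% after quantile normalization. The 17 panel genes had a median log2 difference of -1.79, against -0.35 for all genes tested.

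Among the other pan-reactive genes, 5 of 8 tested were higher in mouse astrocytes and 0 in ferret astrocytes by limma (median log2 difference -1.66). Cp, which encodes the copper-carrying ferroxidase ceruloplasmin, measured 11.2 and 10.2 FPKM in ferret and 94.3 and 93.6 FPKM in mouse duplicates (log2 difference -3.02, SE 0.065, adjusted p = 1.23e-10 by limma). Osmr, the receptor subunit for oncostatin M, measured 10.1 and 11.0 FPKM in ferret and 40.5 and 39.8 FPKM in mouse duplicates (log2 difference -1.83, adjusted p = 3.13e-09 by limma). The small heat shock protein gene Hspb1 was higher in mouse astrocytes by a log2 difference of -1.52, and so was the intermediate filament gene Vim by -1.79, although Vim fell within the limit at -0.96 after quantile normalization. Aspg, an asparaginase gene, was the fifth of the called genes and, like Lcn2, is listed at 0 in both ferret duplicates, against 10.1 and 8.93 FPKM in the mouse. Timp1, an inhibitor of matrix metalloproteinases, was abundant in both species, at 292 and 334 FPKM in ferret and 271 and 267 FPKM in mouse duplicates, and was not called (log2 difference 0.22). Gfap, the filament protein gene most often used to mark reactive astrocytes, and the hyaluronan receptor gene Cd44 were not called either, with log2 differences of 0.01 and -0.79. Cxcl10, a chemokine gene induced by interferon, had a mean under the filter in both species, at 0.573 and 0.416 FPKM in ferret and 0.78 and 1.095 FPKM in mouse duplicates.

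Only 4 of the other 11 A1-associated genes could be tested, since 6 had a mouse value alone and 1 symbol (Ugt1a) matched neither species. Serping1, the inhibitor of the first complement component, was higher in mouse astrocytes, at 8.22 and 8.25 FPKM in ferret against 51.3 and 51.6 FPKM in mouse duplicates (log2 difference -2.51, adjusted p = 2.15e-10 by limma). Psmb8, a catalytic subunit of the immunoproteasome, was also higher there, at 0.029 and 0.103 FPKM against 20.9 and 17.6 FPKM (log2 difference -4.25). Amigo2, which encodes an adhesion molecule with leucine-rich repeats, was the one gene of the remaining panel genes tested that was called higher in ferret astrocytes. Its duplicates stood at 10.4 and 10.2 FPKM in the ferret and 1.49 and 1.71 FPKM in the mouse (log2 difference 2.12, SE 0.078, adjusted p = 3.49e-09 by limma). Fkbp5, a co-chaperone induced by glucocorticoids, was not called (log2 difference -0.26).

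All 5 of the other A2-associated genes tested were higher in mouse astrocytes by limma, 3 of them (Cd14, Ptgs2 and Tgm1) having passed the filter through the mouse alone, beside the 6 A2-associated genes described above, which had been chosen with their levels known. Cd14, the co-receptor for lipopolysaccharide, measured 0.335 and 0.35 FPKM in ferret and 13.5 and 14.0 FPKM in mouse duplicates (log2 difference -3.46, adjusted p = 1.23e-10 by limma). Ptgs2, the inducible cyclooxygenase, measured 0.02 and 0.008 FPKM in ferret and 7.52 and 7.36 FPKM in mouse duplicates (log2 difference -3.06). Clcf1, a cytokine of the interleukin-6 family, was detected in both species, at 4.575 and 4.96 FPKM in ferret and 23.55 and 23.3 FPKM in mouse duplicates (log2 difference -2.08). B3gnt5, a glycosyltransferase of glycolipid synthesis, and Tgm1, a transglutaminase, differed by -1.65 and -1.54.

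**Figure D3:**
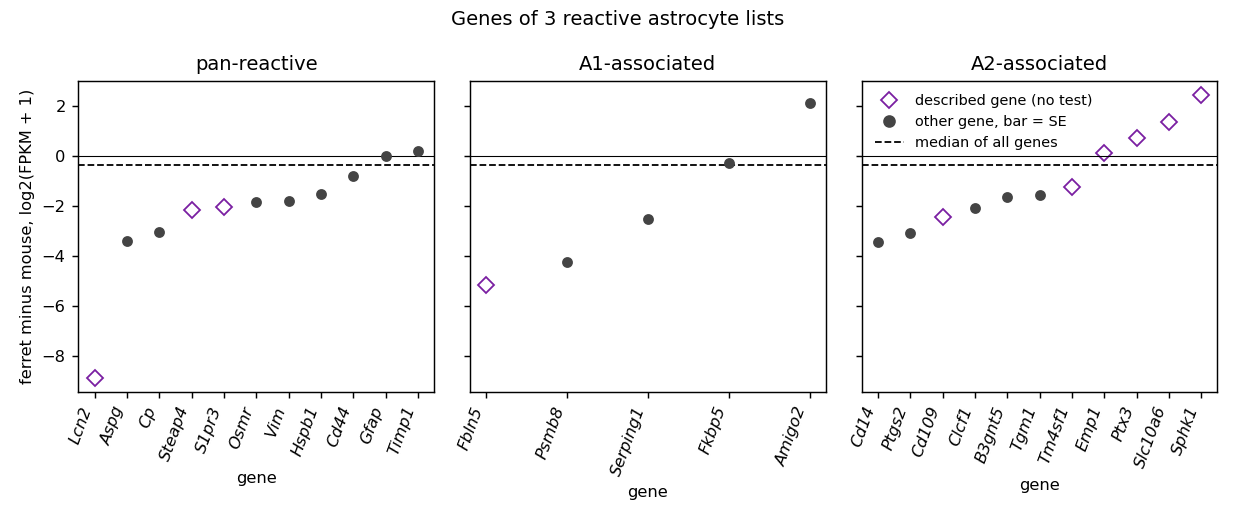
Ferret minus mouse difference in log2(FPKM + 1) for genes of the pan-reactive, A1-associated and A2-associated lists. All passed the filter on low values, and each list is ordered by the difference. Open diamonds mark the 10 genes described, which were not tested. Filled points mark the other genes with their standard errors (shorter than the points), and a dashed line the median of all genes (-0.35). Among the other genes, Amigo2 at 2.12 is the only one called higher in ferret astrocytes, and the places of Lcn2 and Aspg are set by the pseudocount of 1.

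Regulators of the reactive programme included genes called in each direction. Of 26 receptor, kinase and transcription factor genes, 24 were tested, of which 11 were higher in mouse and 2 in ferret astrocytes by limma (median log2 difference -0.75), where 30.1% and 13.1% of all genes tested were. Osmr, given above with the pan-reactive genes, was 1 of the 11 and is counted in both groups. The EGF receptor gene Egfr measured 2.97 and 2.50 FPKM in ferret and 19.6 and 20.3 FPKM in mouse duplicates (log2 difference -2.49, adjusted p = 1.55e-09 by limma). Nfkb1 (log2 difference -2.01) and Nfkbiz (-1.69), a nuclear cofactor of NF-kB that takes part in Lcn2 induction in other cell types, were higher in the mouse as well. Nfkbiz stood at 0.838 and 0.685 FPKM in ferret and 4.65 and 4.73 FPKM in mouse duplicates. It was 1 of the 11, and it passed the filter through the mouse alone and could only come out higher there. Il6st, which encodes gp130 (-1.14), and the tumour necrosis factor receptor gene Tnfrsf1a (-1.13) were also called, but neither was called with a common sum or after quantile normalization. Lifr, the leukaemia inhibitory factor receptor, and Bcl3, an atypical member of the inhibitors of NF-kB, were higher in ferret astrocytes, by 1.23 and 1.37. Stat3 itself measured 41.2 and 42.4 FPKM in ferret and 54.8 and 57.05 FPKM in mouse duplicates (log2 difference -0.41, adjusted p = 8.10e-05 by limma), under the limit for a call, and the STAT3 feedback inhibitor gene Socs3 had a log2 difference of 0.96. With a common sum, and likewise after quantile normalization, 4 regulators were higher in the mouse instead of 11, where 21.7% and 20.4% of all genes were under these scalings, so the regulators are not set apart from other genes by these counts. Socs3 was then called higher in the ferret by 1.34 and 1.33.

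S1pr3 and Sphk1 belong to one pathway, in which sphingosine kinases make sphingosine 1-phosphate, a lipid mediator that leaves the cell and acts on its own receptors, while a lyase and phosphatases break it down. Of 20 further genes of this pathway, 13 were tested, with 5 higher in mouse and 2 in ferret astrocytes by limma (median log2 difference -0.68), near the shares of all genes tested (30.1% and 13.1%), so nothing is read from these counts about the pathway. The second kinase gene, Sphk2, measured 10.1 and 10.2 FPKM in ferret and 7.41 and 7.50 FPKM in mouse duplicates (log2 difference 0.40). Sphk1 was above Sphk2 in all 4 libraries, by a wide margin in the ferret and a narrow one in the mouse. S1pr1 was the most abundant receptor gene in both species, at 58.8 and 57.5 FPKM in ferret and 44.5 and 47.3 FPKM in mouse duplicates, and S1pr2 differed by -0.10 (adjusted p = 0.219 by limma). S1pr4 and S1pr5 were near or at 0 FPKM in all 4 libraries and were not tested. The lyase gene Sgpl1 was higher in mouse astrocytes, at 24.2 and 25.6 FPKM in ferret against 76.3 and 74.0 FPKM in mouse duplicates (log2 difference -1.56, adjusted p = 4.66e-09 by limma), and the phosphatase gene Sgpp1 differed by -1.44. Sptlc2, a subunit of the enzyme that starts sphingolipid synthesis, was higher in the mouse too (-2.19). The ceramide synthase gene Cers6 was higher in the ferret, at 32.3 and 28.9 FPKM against 5.115 and 5.665 FPKM (log2 difference 2.30), and so was the ceramidase gene Acer2 (1.54). Acer2 passed the filter through the ferret alone and could only come out higher there. With a common sum, and likewise after quantile normalization, 3 further genes of the pathway were higher in the mouse instead of 5, since Degs1 and Cers5 fell within a log2 difference of 1. The abundant ceramidase gene Asah1 (-0.68) and ceramide synthase gene Cers2 (-0.32) were not called.

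**Figure D4:**
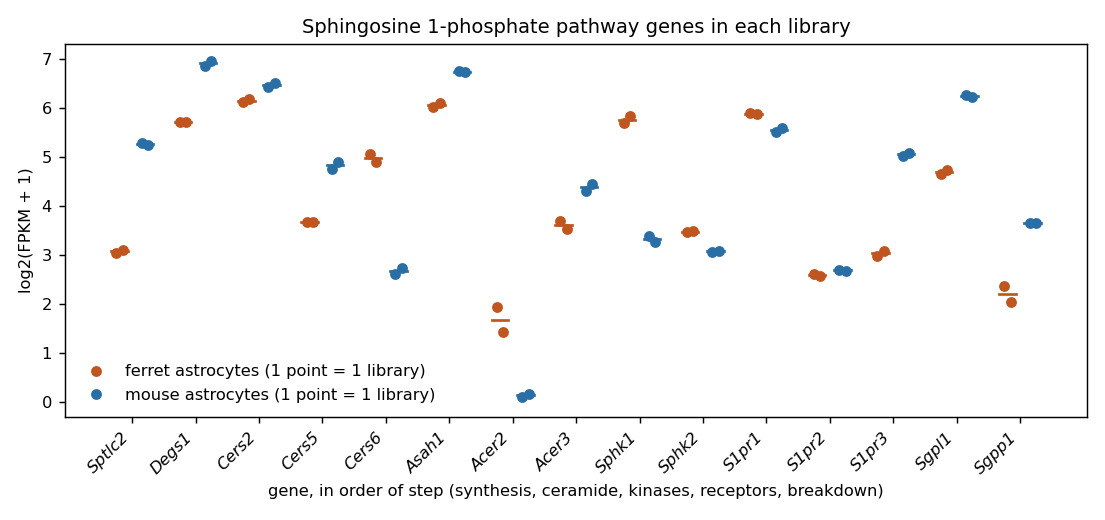
Level as log2(FPKM + 1) in each library of 15 genes of sphingosine 1-phosphate synthesis, reception and breakdown. All 15 passed the filter on low values, and Sphk1 and S1pr3 among them were described without a test. There is 1 point per library and a bar at each species mean. Sphk1 and Cers6 are higher in ferret astrocytes, S1pr3, Sgpl1 and Sptlc2 are higher in mouse astrocytes, and S1pr1 and S1pr2 lie close together.

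The relatives of the other genes followed no single pattern. In the STEAP family, Steap2 was higher in mouse astrocytes by limma, at 0.621 and 0.559 FPKM in ferret against 20.0 and 20.1 FPKM in mouse duplicates (log2 difference -3.73), and Steap3 was called at -1.18 but not with a common sum (-0.83) or after quantile normalization (-0.77). In the PMP22 family, Emp2 was called higher in the mouse (log2 difference -4.44, adjusted p = 3.10e-11 by limma). It measured 0.533 and 0.563 FPKM in ferret against 31.85 and 33.6 FPKM in mouse duplicates. Both Emp2 and Steap2 passed the filter through the mouse alone and could only come out higher there. Emp3 (-0.62) and Pmp22 (-0.53) were not called. Among the carriers related to Slc10a6, Slc10a4 was higher in the ferret, at 4.72 and 4.80 FPKM against 0 and 0.039 FPKM (log2 difference 2.50). It passed the filter through the ferret alone and could only come out higher there. Slc10a3 was not called (0.22). Slc10a7 was called at -1.29 but not without mouse replicate 2 (-0.99), with a common sum (-0.98) or after quantile normalization (-0.86). Slc10a1 and Slc10a2, the L6 family genes Tm4sf4 and Tm4sf5, and the pentraxin genes Nptx2, Crp and Apcs had a mean under 1 FPKM in both species and were not tested.

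Lipocalins and partners of lipocalin-2 were called in both directions, although the filter on low values fixed the direction of some. Apod, which encodes a lipid-carrying lipocalin, was higher in the mouse by limma (log2 difference -3.19). Rbp4, the lipocalin that carries retinol, was higher in the ferret, at 23.9 and 23.4 FPKM against 0.111 and 0.154 FPKM (log2 difference 4.44). It passed the filter through the ferret alone and could only come out higher there. The lipocalin-2 receptor gene Slc22a17 was detected in both species, at 16.9 and 15.7 FPKM in ferret and 26.3 and 27.8 FPKM in mouse duplicates, and was not called (-0.70). Mmp9, whose protein forms a complex with lipocalin-2, was low in both species and higher in the ferret (log2 difference 1.26). Like Rbp4, Mmp9 passed the filter through the ferret alone and could only come out higher there. Bdh2, whose product takes part in making a mammalian siderophore, was also higher in the ferret (1.15), and Lrp2, which encodes the endocytic receptor megalin, was not called (-0.72) except with a pseudocount of 0.1 (-1.27). The lipocalin gene C8g, of the complement system, was called at -1.08 but not with a common sum (-0.93) or after quantile normalization (-0.82). C8g passed the filter through the mouse alone and could only be called higher there.

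Other matrix genes were called in both directions. Of 15 further fibulin and elastic fibre genes tested, 9 were higher in mouse and 1 in ferret astrocytes by limma (median log2 difference -1.52), beside 30.1% and 13.1% of all genes tested, and 2 of the 9 (Fbln1 and Mfap4) passed the filter through the mouse alone. Fbln2 measured 2.55 and 2.515 FPKM in ferret and 85.4 and 81.7 FPKM in mouse duplicates (log2 difference -4.58). Lox, which encodes a collagen and elastin crosslinking enzyme, measured 42.5 and 34.6 FPKM in ferret and 394 and 374 FPKM in mouse duplicates (log2 difference -3.29). Fbln1 (-4.19), the microfibril gene Mfap5 (-3.31) and the crosslinking enzyme gene Loxl1 (-3.08) were higher in the mouse too, and Efemp2 was called at -1.05 but not with a common sum (-0.66) or after quantile normalization (-0.73). The gene called higher in the ferret was Fbln7, at 20.8 and 20.2 FPKM in ferret and 2.03 and 1.99 FPKM in mouse duplicates (log2 difference 2.84). Efemp1, the most abundant fibulin gene of the list in the ferret, was not called (-0.05).

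Markers of the cell types that such cultures can hold differed between the species alongside these genes. The marker lists were chosen with earlier results of these data known, so no count of marker calls is read as support for a direction. The 12 astrocyte markers summed to 3765.6 and 3880.5 FPKM in ferret and 3832 and 4151 FPKM in mouse duplicates, led by Aldoc (mean 1659.6 FPKM) in the ferret and Gfap (mean 1487 FPKM) in the mouse. None of them was listed at 0, and Gfap is also on the pan-reactive list. By limma 7 were higher in the mouse and 1 in the ferret, and Slc1a2, 1 of the 7, passed the filter through the mouse alone. With a common sum or after quantile normalization 5 and 2 were. Gja1 and Slc1a3 then lost their calls and Aldoc was called higher in the ferret. Of all genes tested, 30.1% were called higher in the mouse and 13.1% in the ferret. With a common sum these shares were 21.7% and 19.3%, and after quantile normalization 20.4% and 20.6%. Of the 19 microglial markers reported 18 were tested, and these 18 were called higher in mouse astrocytes. They summed to 13.2 and 11.7 FPKM in ferret and 990.2 and 965 FPKM in mouse duplicates. Tmem119 led in the ferret (3.84 FPKM) and Tyrobp in the mouse (146 FPKM), Cx3cr1 is listed at 0 in the ferret, and 14 of the 18 markers had a ferret mean under 1 FPKM and so passed the filter through the mouse alone. All 11 fibroblast markers tested were higher in the mouse, 5 of them having passed the filter through the mouse alone. They summed to 127 and 112 FPKM in ferret and 1876 and 1862.5 FPKM in mouse duplicates. They were led by Col1a2 in the ferret (79.6 FPKM) and Serpinf1 in the mouse (641 FPKM), with Mgp listed at 0 in the ferret.

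Vascular markers summed to 17.9 and 18.0 FPKM in ferret and 59.5 and 58.0 FPKM in mouse duplicates, 13 of 15 having a value in both species, and were led by Kcnj8 in the ferret (11.5 FPKM) and Pdgfrb in the mouse (23.6 FPKM). Of the 7 tested, 5 were higher in the mouse and 1 in the ferret, beside 30.1% and 13.1% of all genes tested. Of the 5, 4 passed the filter through the mouse alone, and the gene higher in the ferret, Kcnj8, passed through the ferret alone. The endothelial genes Pecam1, Cdh5 and Tek and the pericyte gene Rgs5 are listed at 0 in the ferret, as Cldn5 is in the mouse. In the mouse duplicates Cdh5 had 21.96 and 22.46 FPKM and Tek 1.339 and 1.344 FPKM. Rgs5 (0.601 and 0.576 FPKM) and Pecam1 (0.041 and 0.031 FPKM) were lower there. Of the 13 markers, 10 had a mean under 1 FPKM in the ferret and 7 in the mouse. The 9 oligodendrocyte lineage markers with a value in both species summed to 169 and 188 FPKM in ferret and to 69.0 FPKM in each of the mouse duplicates, 3 of 8 tested being higher in the ferret. Sox10, 1 of the 3, passed the filter through the ferret alone. With a pseudocount of 0.1, a common sum or quantile normalization, 5 of the 8 were called higher in the ferret. Of all genes tested, 15.5%, 19.3% and 20.6% were called higher in the ferret under these settings, against 13.1% as deposited. The summed levels leave out Olig1, which had 107 and 117 FPKM in the mouse duplicates and no ferret value under that symbol, more than the other markers together, so they give no order of the species for the whole list. The 6 neuronal markers with a value in both species summed to 30.8 and 31.6 FPKM in ferret and 32.0 and 33.3 FPKM in mouse duplicates, and 3 of the 4 tested were higher in the ferret, 2 of them having passed the filter through the ferret alone. The sums leave out Stmn2, which at 124 and 127 FPKM was above all of them together in the mouse and had no ferret value under that symbol. The sums above likewise leave out the microglial gene C1qa (193 and 193 FPKM in the mouse duplicates) and the fibroblast gene Twist1 (13.1 and 13.2 FPKM), for which a mouse value alone was found. The part of these cell types in the levels of Lcn2, Cd14, Ptgs2, Fbln5 and the other genes was not tested.

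**Figure D5:**
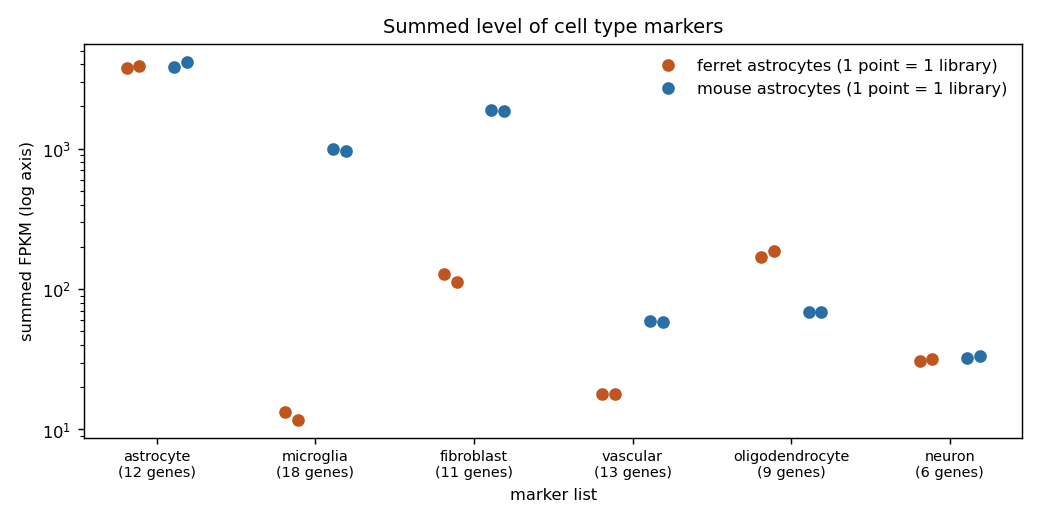
Summed FPKM (log axis) of the markers of 6 cell types in each library, over the markers with a value in both species, 1 point per library. Astrocyte sums lie between 3765.6 and 4151 FPKM in all 4 libraries, microglial and fibroblast sums are higher in both mouse libraries, and the oligodendrocyte and neuronal sums leave out Olig1 and Stmn2, which have a mouse value alone and exceed the plotted mouse sums.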

How the data were processed

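RNA sequencing values of 4 libraries were used, 2 per species. Per the labels and methods, the authors made stranded polyA-selected libraries, aligned ferret reads to MusPutFur1.0 and mouse reads to GRCm38 with STAR (version 2.7.0f) and deposited FPKM from Cufflinks (version 2.2.1) with the Ensembl annotation of each species, 1 value per gene, library and file. Whether strand was used in the quantification is not given in the sources used here. FPKM holds no counts, and the read counts and gene lengths that the study lists apart from the deposited files were not used here. The commonest ratio between low values gave only relative depths within a species, 1.17 for ferret and 0.834 for mouse replicate 1 against replicate 2, and no counting intervals are given.

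Symbols were matched in upper case (13373 shared). Values were set to log2(FPKM + 1) and compared with limma (version 3.58.1, R 4.3.3, trend) for 10204 genes with a mean of at least 1 FPKM in one species, with Benjamini-Hochberg adjustment. On this scale the change of low genes is understated. On simulated data for 10204 genes, 98.5% of 200 genes changed by a log2 value of 1.5 were called, with 0 false calls. The simulated libraries had the spread of the real duplicates and no shift between the species. The simulation therefore does not gauge false calls that arise from culture, annotation or scale. An exact permutation test of 2 against 2 libraries cannot go below p = 0.333.

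The 10 genes and the lists (from general knowledge of the field) were chosen with earlier results of these data known. Named by rule were the 10 genes, all genes of lists with up to 8 shared genes, in longer lists the 6 with the largest difference and the 3 most abundant, and the 5 nearest to Lcn2. Of the cell type markers and of lipocalins not tested, not every gene that the rule gives is printed. The other list genes named, among them Timp1, Cd44, Cxcl10, Socs3, Tgm1, Olig1, Stmn2, C1qa, Twist1, Sphk2, S1pr1, S1pr2, Sgpp1 and Fbln7, were added after their values were seen. Mouse positions are those of GENCODE M21 on GRCm38, the authors' build in another annotation release. Of the microglial list, 1 marker is not reported here, and its counts and sums leave that marker out. A ferret genome, sequences of proteins and promoters, and the western blots and imaging were not used here. Alternatives were a pseudocount of 0.1, no filter, rescaling to the mean library sum, quantile normalization, summed values, a replicate block and each library left out.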

Additional observations from a re-analysis of the deposited data

How the results depend on the processing

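Genes called higher in ferret and in mouse astrocytes numbered 1336 and 3069 with FPKM as deposited (30.3% higher in ferret), 1967 and 2215 with a common library sum (47.0%), and 2110 and 2090 after quantile normalization (50.2%), as the median log2 difference moved from -0.35 to 0.00 and 0.08. Under both scalings, 4 instead of 11 regulators and 3 instead of 5 further sphingosine pathway genes were higher in the mouse. Under both scalings 5 and 2 astrocyte markers instead of 7 and 1 were higher in the mouse and the ferret, and 5 oligodendrocyte markers instead of 3 were higher in the ferret, as also with a pseudocount of 0.1. Calls of the short family lists that changed (Steap3, C8g, Slc10a7, Lrp2) are given beside them. The counts over all genes, the reactive panels, the regulators and the sphingosine pathway did not move by over 1.5 times with a pseudocount of 0.1, without the filter, with summed values or with any one library left out. A replicate block gave 1342 and 3072 genes and left every list count as it was. The duplicate differences of the species were uncorrelated (r = 0.010 across 10204 genes), so the shared replicate numbers are not shown to pair the libraries. No log2 difference of the 9 genes reversed, which only the common sum and the quantile normalization could have brought about. The widest ranges were those of the low genes Steap4 (-3.55 to -1.85) and Slc10a6 (1.32 to 3.06).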

Other observations

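Several abundant genes of the reactive panels had a mouse value but no ferret value under the same symbol, and so entered no comparison. Among the A2-associated genes, S100a10, which encodes the annexin A2 partner p11, measured 294 and 304 FPKM in the mouse duplicates. Serpina3n, a pan-reactive serine protease inhibitor gene, measured 192 and 186 FPKM. Of the A1-associated genes, Ggta1, a galactosyltransferase gene, stood at 89.2 and 90.7 FPKM, the major histocompatibility complex gene H2-D1 at 86.0 and 78.0 FPKM, and the interferon-induced GTPase gene Gbp2 at 19.6 and 16.0 FPKM. Srgn, a proteoglycan gene (8.58 and 8.34 FPKM), H2-T23 (4.61 and 4.23 FPKM) and Iigp1 (1.22 and 0.552 FPKM) were lower.

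Cd109 belongs to the thioester-containing protein family of alpha-2-macroglobulin and the complement components. A2m measured 186 and 191 FPKM and C4b 19.6 and 18.8 FPKM in the mouse duplicates, with no ferret value under these symbols. C3 was the one relative tested, and it measured 0.072 and 0.046 FPKM in ferret and 61.3 and 59.5 FPKM in mouse duplicates (log2 difference -5.86, ferret minus mouse, adjusted p = 6.85e-12 by limma). C3 passed the filter on low values through the mouse alone. The filter thus fixed its direction as higher in the mouse, and no direction is read from its p-value.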
